A study of Mus musculus with 3 samples.

Results

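Translation initiation factor genes were followed in mouse liver as the 57 rows, of 23850 in each table, whose symbol begins with Eif and a digit, without Eif2s3x and Eif2s3y, which encode the gamma subunit of eIF2. The choice used names and no measured value. RNA depleted of ribosomal RNA was sequenced from livers of mice aged 16 weeks on a mixed C57BL6J/FVB background. Each group had 1 library, of total RNA from flash-frozen liver. Ercc1 DR was from Ercc1 delta/- mice under diet restriction, Ercc1 AL from Ercc1 delta/- mice fed ad libitum, and wt AL from wild-type mice fed ad libitum. The Ercc1 delta/- mice lack normal function of an endonuclease subunit used in DNA repair and age early, and diet restriction lowers food intake. Whether RNA of several animals was pooled is not stated. There is therefore no spread between animals, no p-value and no SD, and every difference below lacks a replicate check.

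Initiation factors bring the initiator tRNA, the small ribosomal subunit and the capped mRNA together and find the start codon. The eIF2 complex carries the initiator tRNA and is recharged by eIF2B, and kinases that phosphorylate the alpha subunit of eIF2 slow initiation under stress. The cap is bound by eIF4E, which 4E-binding proteins sequester when the growth kinase mTORC1 is inactive. In liver, feeding and fasting are known to shift both controls.

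The values are FPKM as deposited, fragments counted per length of transcript and per depth of the library, each with a deposited interval. Of the 57 members, 56 had an estimate in every library. Eif4a2, a helicase gene, was marked as having too much data in each library and carries no value. Eif4e1b, Eif5a2 and Eif2c4 stayed under 1 FPKM in every library, which left 53 members at 1 FPKM or more in at least 1 library of each pair. The mutated gene Ercc1 was at 0.475 FPKM in Ercc1 DR, 0.573 FPKM in Ercc1 AL and 0.461 FPKM in wt AL, with overlapping intervals, so it does not check the labels. Of 10 hepatocyte markers, 9 had values (Alb did not), and their summed level was 7146 FPKM in Ercc1 DR, 3512 FPKM in Ercc1 AL and 3017 FPKM in wt AL. Endothelial markers (7 genes) summed to 11.3 FPKM in Ercc1 DR, 19.3 FPKM in Ercc1 AL and 27.6 FPKM in wt AL. Macrophage, stellate, cholangiocyte, neutrophil and lymphocyte lists summed to between 1.15 and 15.6 FPKM in each library, and no measured marker was at 0. Erythroid genes summed to 168 FPKM in Ercc1 DR, 109 FPKM in Ercc1 AL and 174 FPKM in wt AL. The summed hepatocyte markers were thus highest, and the summed endothelial markers lowest, in Ercc1 DR, where most members were highest, though single markers such as Serpina1a and Lyve1 had the opposite extreme there, and their part in the results was not tested. A change in the number of cells of a type and a change in RNA per cell cannot be told apart in these libraries.

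As deposited, most members were highest in Ercc1 DR, intermediate in Ercc1 AL and lowest in wt AL. The median member stood at 11.2 FPKM in Ercc1 DR, 5.19 FPKM in Ercc1 AL and 3.303 FPKM in wt AL, and their summed level was 996 FPKM in Ercc1 DR, 521 FPKM in Ercc1 AL and 344 FPKM in wt AL. That order held in 47 of 53 members, against 52.5% of all 12816 features with at least 1 FPKM in a library. The order of the members by level differed between the libraries. In Ercc1 DR the highest members were Eif4a1, Eif1, Eif5a, Eif4ebp3 and Eif5. In Ercc1 AL they were Eif4a1, Eif5a, Eif2s1, Eif1 and Eif4g1. In wt AL they were Eif2s1, Eif5a, Eif4a1, Eif1 and Eif4g1. Eif2s1 thus ranked 24 of 56 in Ercc1 DR, 3 in Ercc1 AL and 1 in wt AL, and Eif4ebp3 ranked 4 in Ercc1 DR, 13 in Ercc1 AL and 26 in wt AL. Eif2s1 was at 13.6 FPKM in Ercc1 DR, 38.5 FPKM in Ercc1 AL and 50.96 FPKM in wt AL, and Eif4ebp3 was at 62.6 FPKM in Ercc1 DR, 11.97 FPKM in Ercc1 AL and 3.72 FPKM in wt AL. They differed in opposite directions and bound the range of the members.

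**Figure D1:**
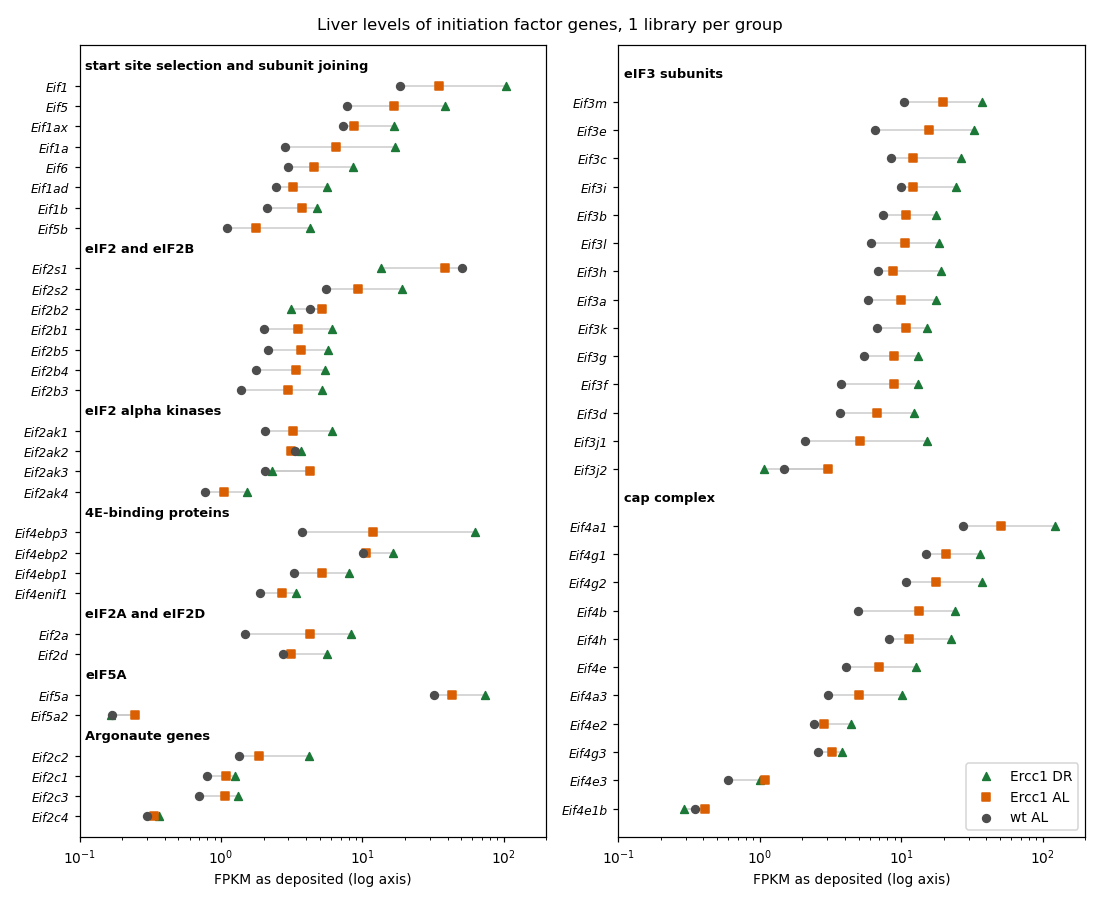
Levels of the 56 measured members in the 3 libraries, in FPKM on a log axis, grouped by role. Green triangles are Ercc1 DR, orange squares Ercc1 AL and grey circles wt AL; most rows run from wt AL at the left to Ercc1 DR at the right, while Eif2s1 runs the other way, at 13.6 FPKM in Ercc1 DR, 38.5 FPKM in Ercc1 AL and 50.96 FPKM in wt AL.

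The libraries differ in their general level, and this bears on every ratio. For 9109 features that reached 1 FPKM in each library, log2 FPKM ratios had a median of 0.49 for Ercc1 AL against wt AL, 0.33 for Ercc1 DR against Ercc1 AL and 0.78 for Ercc1 DR against wt AL. Ratios below are log2 ratios of FPKM + 1 after each pair was rescaled so that this median is 0, unless called as deposited, and because 1 FPKM is added, low genes show smaller ratios than their FPKM alone would give. The general shift depends on which features set it. Over features with at least 20 FPKM in each library it was 0.48 for Ercc1 AL against wt AL, -0.22 for Ercc1 DR against Ercc1 AL and 0.30 for Ercc1 DR against wt AL. From the summed FPKM without the 100 most abundant genes it was 0.75, -1.23 and -0.48 for the same comparisons. Directions were therefore checked under 6 scalings: the values as deposited, medians over features with at least 1, 5 or 20 FPKM, the median over protein-coding symbols, and the summed FPKM. A member is called higher or lower where this ratio reaches 2-fold. The rescaled order Ercc1 DR above Ercc1 AL above wt AL held in 33 of 53 members, against 26.2% of all features.

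For genotype under free feeding, the initiation factor genes as a list had a median slightly above that of all features, and Eif4ebp3, a 4E-binding protein gene, was the 1 member past 2-fold after rescaling. The median log2 ratio of the 53 members in Ercc1 AL against wt AL was 0.17, beside 0.01 over all 12359 features tested, and 36 members were above 0, against 50.9% of all features. Members at least 2-fold higher numbered 1 (all features 2.35%) and members at least 2-fold lower 0 (all features 4.90%). As deposited, 6 members were higher (all features 5.80%) and 0 lower (2.20%), and the medians were 0.57 for members and 0.34 for all features. With the libraries scaled over features with at least 20 FPKM, the members higher numbered 1 and those lower 0. Scaled to the summed FPKM, 0 were higher and 1 lower. A scaling moves all features together, and their shares under these scalings were not counted. Among features with at least 5 FPKM in either library, the median was 0.19 for 31 members and 0.05 for all.

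For diet within the mutant, most initiation factor genes were higher in Ercc1 DR, by an amount that depends on the scaling, while Eif4ebp3 stood highest and Eif2s1, the alpha subunit gene of eIF2, lowest. The median log2 ratio of the 53 members in Ercc1 DR against Ercc1 AL was 0.44, beside -0.06 over all 12361 features tested, and 43 members were above 0, against 44.8% of all features. Members at least 2-fold higher numbered 3 (all features 3.12%) and members at least 2-fold lower 2 (all features 12.0%). As deposited, 10 members were higher (all features 6.50%) and 1 lower (8.71%), and the medians were 0.75 for members and 0.17 for all features. With the libraries scaled over features with at least 20 FPKM, the members higher numbered 20 and those lower 1. Scaled to the summed FPKM, 45 were higher and 0 lower. Both scalings raise the ratios of all features here, whose shares were not counted, so these counts are not particular to the members. Among features with at least 5 FPKM in either library, the median was 0.49 for 40 members and 0.15 for all.

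For the restricted mutant against the freely fed wild type, ratios were wider than in the other comparisons, with Eif4ebp3 the highest and Eif2s1 the lowest. Past 2-fold after rescaling were 3 of 8 start site genes, 3 of 14 eIF3 rows and 2 of 10 cap complex genes tested. The median log2 ratio of the 53 members in Ercc1 DR against wt AL was 0.62, beside -0.03 over all 12127 features tested, and 44 members were above 0, against 48.0% of all features. Members at least 2-fold higher numbered 10 (all features 6.02%) and members at least 2-fold lower 1 (all features 16.4%). As deposited, 37 members were higher (all features 24.0%) and 1 lower (8.63%), and the medians were 1.23 for members and 0.50 for all features. With the libraries scaled over features with at least 20 FPKM, the members higher numbered 26 and those lower 1. Scaled to the summed FPKM, 42 were higher and 1 lower. These scalings also raise the ratios of all features, whose shares were not counted, so the counts are not particular to the members. Among features with at least 5 FPKM in either library, the median was 0.74 for 39 members and 0.23 for all.

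**Figure D2:**
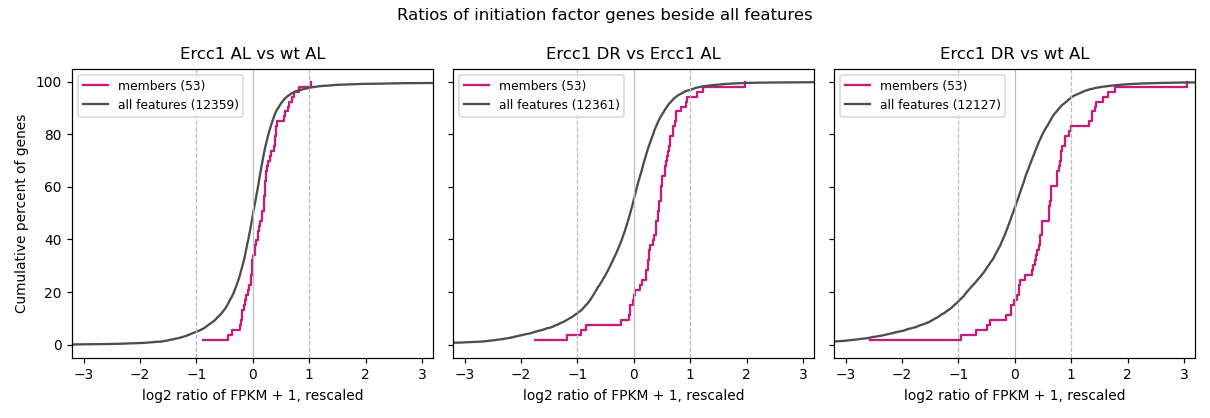
Cumulative percent of genes by log2 ratio of FPKM + 1 after median rescaling, for the 53 members (pink) and all features tested (grey), with dashed lines at 2-fold. The members' curve lies to the right of all features over most of its length, with medians of 0.17, 0.44 and 0.62 from the left panel to the right; a scaling moves both curves of a panel together, and with the summed FPKM the members' median of the left panel turned to -0.05.

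Genes of start site selection and subunit joining were all above 0 in Ercc1 DR against Ercc1 AL, though Eif1b changed sign when the libraries were scaled otherwise. Eif1, which guards the fidelity of start codon choice (chromosome 11, 100319996 to 100322096, plus strand), had levels of 103 FPKM in Ercc1 DR, 34.6 FPKM in Ercc1 AL and 18.5 FPKM in wt AL. Its ratio in Ercc1 DR was 1.22 against Ercc1 AL and 1.66 against wt AL. The paralog Eif1b was at 4.79 FPKM in Ercc1 DR, 3.75 FPKM in Ercc1 AL and 2.13 FPKM in wt AL, so Eif1 was 21.5 times its level in Ercc1 DR, 9.23 times in Ercc1 AL and 8.68 times in wt AL. Eif1 was thus the more abundant in each library. The scanning factor eIF1A has an autosomal gene, Eif1a, which was at 16.9 FPKM in Ercc1 DR, 6.497 FPKM in Ercc1 AL and 2.83 FPKM in wt AL. Its X-linked counterpart Eif1ax was at 16.8 FPKM in Ercc1 DR, 8.78 FPKM in Ercc1 AL and 7.297 FPKM in wt AL. The autosomal copy was below the X-linked one in wt AL and level with it by FPKM in Ercc1 DR. There the deposited intervals lay apart, at 15.3 to 16.6 FPKM for Eif1a and 12.5 to 14.7 FPKM for Eif1ax. Eif5, which triggers GTP hydrolysis by eIF2 at the start codon, was at 38.3 FPKM in Ercc1 DR, 16.6 FPKM in Ercc1 AL and 7.80 FPKM in wt AL, with ratios of 0.84 in Ercc1 DR against Ercc1 AL and 0.55 in Ercc1 AL against wt AL. Eif5b, which joins the ribosomal subunits, was at 4.25 FPKM in Ercc1 DR, 1.76 FPKM in Ercc1 AL and 1.11 FPKM in wt AL. Eif6, which keeps the large subunit apart until it is needed, was at 8.55 FPKM in Ercc1 DR, 4.56 FPKM in Ercc1 AL and 2.98 FPKM in wt AL. Eif1ad, named for an eIF1A-like domain, was at 5.65 FPKM in Ercc1 DR, 3.22 FPKM in Ercc1 AL and 2.46 FPKM in wt AL. Eif5b, Eif6 and Eif1ad had the order of most members, at lower levels than Eif5. The 250 bases before the RefSeq start of Eif1 are shown 5′ to 3′ as those of the most abundant of the 3 members past 2-fold above Ercc1 AL in Ercc1 DR. They hold neither of the motifs CACGTG and CCGGAAG that were searched in all members, so nothing is in capitals.
Eif1 (GRCm38.p6, chr11:100319699-100319948, plus): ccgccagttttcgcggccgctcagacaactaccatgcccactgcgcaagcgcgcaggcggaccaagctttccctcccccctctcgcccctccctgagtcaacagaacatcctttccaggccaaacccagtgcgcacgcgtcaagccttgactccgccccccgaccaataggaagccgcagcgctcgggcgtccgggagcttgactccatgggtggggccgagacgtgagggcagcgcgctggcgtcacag

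Of the eIF2 subunit genes, Eif2s1 was out of step with the others. Eif2s1, the alpha subunit that stress kinases phosphorylate (chromosome 12, 78862072 to 78887010, plus strand), measured 13.6 FPKM in Ercc1 DR, 38.5 FPKM in Ercc1 AL and 50.96 FPKM in wt AL. The beta subunit gene Eif2s2 (chromosome 2, 154871410 to 154892906, minus strand) measured 18.96 FPKM in Ercc1 DR, 9.29 FPKM in Ercc1 AL and 5.56 FPKM in wt AL. The gamma subunit gene Eif2s3x, which is no member, was at 16.5 FPKM in Ercc1 DR, 9.998 FPKM in Ercc1 AL and 5.75 FPKM in wt AL, in the order of Eif2s2. The alpha gene was lowest in Ercc1 DR and the beta gene lowest in wt AL, so the ratio of alpha to beta levels was 0.719 in Ercc1 DR, 4.14 in Ercc1 AL and 9.16 in wt AL. For Eif2s1 the log2 ratio in Ercc1 DR against Ercc1 AL was -1.75, between -1.81 and -0.26 over the 6 scalings, so its 2-fold call depends on the scaling while its direction does not, and -1.75 from interval midpoints. Its deposited intervals were 12.4 to 13.5 FPKM in Ercc1 DR, 35.5 to 37.2 FPKM in Ercc1 AL and 47.03 to 49.3 FPKM in wt AL, and did not overlap. In the gene annotation used here Eif2s1 overlaps no other gene. Its neighbour Atp6v1d was at 17.96 FPKM in Ercc1 DR, 9.83 FPKM in Ercc1 AL and 5.48 FPKM in wt AL, and its neighbour Plek2 at 0.747 FPKM in Ercc1 DR, 0.356 FPKM in Ercc1 AL and 0.237 FPKM in wt AL. Both neighbours were highest in Ercc1 DR, unlike Eif2s1. The sequences before the starts of both subunit genes are shown because the 2 genes differed in opposite directions. They are the 250 bases before each RefSeq start, 5′ to 3′, and neither holds CACGTG or CCGGAAG, so they have no capitals.
Eif2s1 (GRCm38.p6, chr12:78861822-78862071, plus): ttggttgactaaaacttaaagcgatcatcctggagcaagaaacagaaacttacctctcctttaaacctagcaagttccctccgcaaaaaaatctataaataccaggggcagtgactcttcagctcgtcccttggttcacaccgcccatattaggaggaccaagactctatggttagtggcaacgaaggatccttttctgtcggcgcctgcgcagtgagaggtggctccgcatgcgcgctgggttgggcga
Eif2s2 (GRCm38.p6, chr2:154892907-154893156, minus): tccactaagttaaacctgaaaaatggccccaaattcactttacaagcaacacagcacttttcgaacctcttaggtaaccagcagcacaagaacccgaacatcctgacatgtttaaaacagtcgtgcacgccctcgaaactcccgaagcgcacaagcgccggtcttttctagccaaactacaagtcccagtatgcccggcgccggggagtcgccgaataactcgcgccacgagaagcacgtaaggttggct

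The eIF2B complex, which reloads eIF2 with GTP, showed 1 subunit gene out of step. Eif2b1, Eif2b3, Eif2b4 and Eif2b5 lay between 5.18 and 6.09 FPKM in Ercc1 DR, between 2.99 and 3.69 FPKM in Ercc1 AL and between 1.39 and 2.16 FPKM in wt AL. Each of these 4 genes was highest in Ercc1 DR and lowest in wt AL, the catalytic epsilon subunit gene Eif2b5 at 5.71 FPKM in Ercc1 DR, 3.69 FPKM in Ercc1 AL and 2.16 FPKM in wt AL. Eif2b2, the beta subunit (chromosome 12, 85219513 to 85226628), measured 3.14 FPKM in Ercc1 DR, 5.21 FPKM in Ercc1 AL and 4.24 FPKM in wt AL. It was the highest of the 5 genes in wt AL and Ercc1 AL and the lowest in Ercc1 DR. Its ratio in Ercc1 DR was -0.85 against Ercc1 AL and -0.95 against wt AL, short of 2-fold on the FPKM + 1 scale, and both turn to above 0 (0.40 and 0.03) when scaled to the summed FPKM. Its deposited interval was 2.52 to 3.21 FPKM in Ercc1 DR, 4.28 to 5.21 FPKM in Ercc1 AL and 3.44 to 4.27 FPKM in wt AL, and the Ercc1 DR interval lay below the others.

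The kinases that phosphorylate eIF2 alpha differed from each other, and none passed 2-fold after rescaling. Eif2ak3, which encodes PERK, the kinase of endoplasmic reticulum stress (chromosome 6, 70844527 to 70905240), measured 2.28 FPKM in Ercc1 DR, 4.28 FPKM in Ercc1 AL and 2.06 FPKM in wt AL, highest in Ercc1 AL. Its ratio was -0.94 in Ercc1 DR against Ercc1 AL, which turns to 0.24 when scaled to the summed FPKM, and 0.42 in Ercc1 AL against wt AL. The chaperone gene Hspa5, a target of that stress response, had the same order as deposited, at 105 FPKM in Ercc1 DR, 138 FPKM in Ercc1 AL and 53.9 FPKM in wt AL. For Eif2ak3, however, the intervals of Ercc1 DR and wt AL overlapped, and its rescaled ratio between them was -0.44. Eif2ak1, the heme-regulated kinase, was at 6.09 FPKM in Ercc1 DR, 3.22 FPKM in Ercc1 AL and 2.05 FPKM in wt AL. Eif2ak4, which encodes GCN2, the sensor of uncharged tRNA, was at 1.53 FPKM in Ercc1 DR, 1.06 FPKM in Ercc1 AL and 0.776 FPKM in wt AL. Both were highest in Ercc1 DR by deposited level. Eif2ak2, which encodes PKR, the kinase activated by double-stranded RNA, was nearly level as deposited, at 3.67 FPKM in Ercc1 DR, 3.14 FPKM in Ercc1 AL and 3.32 FPKM in wt AL. Its rescaled ratio was -0.44 in Ercc1 AL against wt AL, and -0.49 in Ercc1 DR against wt AL, where the sign depends on the scaling. Protein activity of the kinases was not measured. A list of 23 genes tied to eIF2 alpha phosphorylation and the factor ATF4 was read beside them. None was at least 2-fold higher after rescaling in any comparison. Of all features, 2.35% were higher in Ercc1 AL against wt AL, 3.12% in Ercc1 DR against Ercc1 AL and 6.02% in Ercc1 DR against wt AL. The median of the list was -0.36 in Ercc1 AL against wt AL (16 tested, 2 lower), 0.04 in Ercc1 DR against Ercc1 AL (14 tested, 0 lower) and -0.54 in Ercc1 DR against wt AL (15 tested, 2 lower). Atf4 itself was at 15.05 FPKM in Ercc1 DR, 11.4 FPKM in Ercc1 AL and 11.8 FPKM in wt AL. The genes called lower were the hormone genes Fgf21 and Gdf15, in both comparisons with wt AL. Of all features, 4.90% were lower in Ercc1 AL against wt AL, 12.0% in Ercc1 DR against Ercc1 AL and 16.4% in Ercc1 DR against wt AL. As deposited, 0 genes of the list were lower in Ercc1 AL against wt AL (all features 2.20%). In Ercc1 DR against wt AL as deposited, 1 was lower (all features 8.63%) and 2 higher (24.0%). Fgf21 was at 0.555 FPKM in Ercc1 DR, 0.932 FPKM in Ercc1 AL and 2.76 FPKM in wt AL, and Gdf15 at 7.43 FPKM in Ercc1 DR, 5.75 FPKM in Ercc1 AL and 9.48 FPKM in wt AL.

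**Figure D3:**
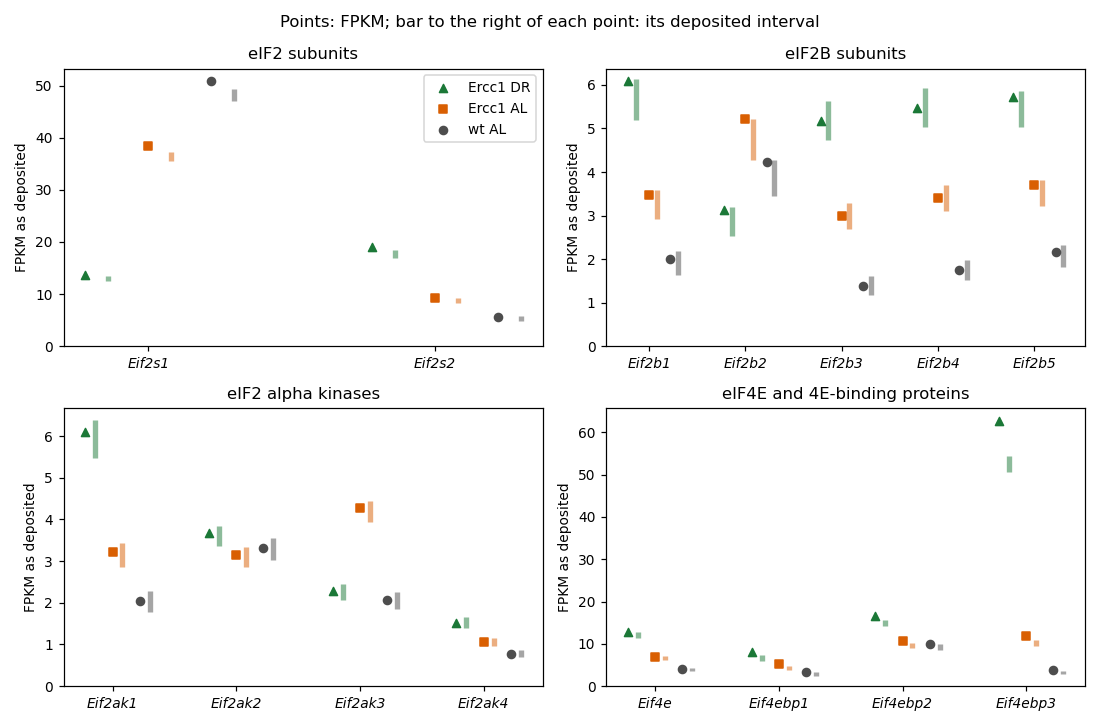
FPKM of eIF2, eIF2B, eIF2 alpha kinase and eIF4E with 4E-binding protein genes, on linear axes, with Ercc1 DR (green triangle), Ercc1 AL (orange square) and wt AL (grey circle) from left to right and the deposited interval as a bar beside each point. Eif2s1 and Eif2b2 are lowest in Ercc1 DR, Eif2ak3 is highest in Ercc1 AL, and Eif4ebp3 reaches 62.6 FPKM in Ercc1 DR; after scaling to the summed FPKM, Eif2b2 and Eif2ak3 are no longer lower in Ercc1 DR than in Ercc1 AL.

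Subunit genes of eIF3, the scaffold that holds the small ribosomal subunit, shared 1 order across the libraries by deposited level. The 12 subunit genes outside the j rows lay between 12.3 and 37.4 FPKM in Ercc1 DR (median 18.1), between 6.702 and 19.7 FPKM in Ercc1 AL (median 10.7) and between 3.68 and 10.5 FPKM in wt AL (median 6.61). Each of the 12 was highest in Ercc1 DR and lowest in wt AL, an order that 52.5% of all features had as deposited. After rescaling, Eif3h (-0.13) and Eif3i (-0.19) were below 0 in Ercc1 AL against wt AL. Eif3b, Eif3c, Eif3g, Eif3h, Eif3i and Eif3k changed sign in that comparison under the 6 scalings. The highest subunit was 3.05 times the lowest in Ercc1 DR, 2.95 times in Ercc1 AL and 2.85 times in wt AL. The spread of the 12 was thus similar in the libraries. The median rescaled ratio of all 14 rows was 0.26 in Ercc1 AL against wt AL, 0.47 in Ercc1 DR against Ercc1 AL and 0.75 in Ercc1 DR against wt AL. Eif3m (chromosome 2, 104999657 to 105017027) was the highest at 37.4 FPKM in Ercc1 DR, 19.7 FPKM in Ercc1 AL and 10.5 FPKM in wt AL. Eif3e, which also links eIF3 to eIF4G (chromosome 15, 43250040 to 43282736), measured 32.7 FPKM in Ercc1 DR, 15.6 FPKM in Ercc1 AL and 6.497 FPKM in wt AL and had the largest ratio of the 12 in both comparisons with wt AL, 1.45 in Ercc1 DR and 0.70 in Ercc1 AL. Eif3f followed Eif3e in Ercc1 AL against wt AL (0.64) at 13.2 FPKM in Ercc1 DR, 8.91 FPKM in Ercc1 AL and 3.78 FPKM in wt AL. Eif3c and Eif3h led in Ercc1 DR against Ercc1 AL, at 0.75 and 0.75. Eif3c was at 26.7 FPKM in Ercc1 DR, 12.2 FPKM in Ercc1 AL and 8.47 FPKM in wt AL. Eif3h was at 19.3 FPKM in Ercc1 DR, 8.75 FPKM in Ercc1 AL and 6.898 FPKM in wt AL. For both, Ercc1 DR stood well above Ercc1 AL, and Ercc1 AL was nearer to wt AL. Eif3a, the largest scaffold subunit, was at 17.6 FPKM in Ercc1 DR, 9.97 FPKM in Ercc1 AL and 5.82 FPKM in wt AL. Eif3d, which can itself bind caps, was the lowest subunit gene at 12.3 FPKM in Ercc1 DR, 6.702 FPKM in Ercc1 AL and 3.68 FPKM in wt AL. The remaining subunit genes Eif3b, Eif3g, Eif3i, Eif3k and Eif3l had ratios between 0.15 and 0.65 in Ercc1 DR against Ercc1 AL. The 250 bases before the start of Eif3m, the highest subunit gene, are shown 5′ to 3′ with a match to CCGGAAG in capitals.
Eif3m (GRCm38.p6, chr2:105017028-105017277, minus): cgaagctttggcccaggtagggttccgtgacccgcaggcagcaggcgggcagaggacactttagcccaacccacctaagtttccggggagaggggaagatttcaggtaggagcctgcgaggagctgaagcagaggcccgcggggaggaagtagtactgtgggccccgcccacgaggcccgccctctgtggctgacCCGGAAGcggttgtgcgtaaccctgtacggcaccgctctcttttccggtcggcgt

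The j subunit is uncertain, since its rows Eif3j1 and Eif3j2 give nearly the same stretch of chromosome 2 and can share fragments. In the gene annotation used here, the gene named Eif3j2 lies at 43475418 to 43477796 on the minus strand, outside the stretch of its row. The chromosome of that annotated gene is not given here and need not be chromosome 2. Whether the row measures that gene was not tested. Eif3j1 was at 15.4 FPKM in Ercc1 DR, 5.15 FPKM in Ercc1 AL and 2.07 FPKM in wt AL, with a status of low data in each library, and Eif3j2 at 1.06 FPKM in Ercc1 DR, 3.06 FPKM in Ercc1 AL and 1.47 FPKM in wt AL. The rows differed in opposite directions in Ercc1 DR against Ercc1 AL, 1.12 for Eif3j1 and -1.19 for Eif3j2. Their sum was 16.4 FPKM in Ercc1 DR, 8.21 FPKM in Ercc1 AL and 3.55 FPKM in wt AL, the order of the other subunits.

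Cap complex genes were mostly higher in Ercc1 DR than in Ercc1 AL, with the helicase gene Eif4a1 ahead of the cap-binding gene Eif4e. Eif4a1, the RNA helicase that unwinds the leader of the mRNA (chromosome 11, 69666936 to 69672423), measured 123 FPKM in Ercc1 DR, 51.2 FPKM in Ercc1 AL and 27.2 FPKM in wt AL. Its ratio was 0.92 in Ercc1 DR against Ercc1 AL, 0.41 in Ercc1 AL against wt AL and 1.37 in Ercc1 DR against wt AL. Eif4b, a cofactor of the helicase (chromosome 15, 102073773 to 102097173), measured 24.2 FPKM in Ercc1 DR, 13.3 FPKM in Ercc1 AL and 4.95 FPKM in wt AL, and the ratio in Ercc1 AL against wt AL was 0.83. The related cofactor Eif4h was at 22.5 FPKM in Ercc1 DR, 11.3 FPKM in Ercc1 AL and 8.25 FPKM in wt AL, and its ratio in Ercc1 AL against wt AL was -0.03. Eif4e, the cap-binding protein, was at 12.7 FPKM in Ercc1 DR, 6.95 FPKM in Ercc1 AL and 4.08 FPKM in wt AL, with a ratio of 0.49 in Ercc1 DR against Ercc1 AL. Eif4a1 was 9.69 times the level of Eif4e in Ercc1 DR, 7.37 times in Ercc1 AL and 6.68 times in wt AL. The helicase gene was thus the more abundant in each library, most so in Ercc1 DR. Among the paralogs of Eif4e, Eif4e2, a cap binder that does not join eIF4G, was at 4.44 FPKM in Ercc1 DR, 2.83 FPKM in Ercc1 AL and 2.43 FPKM in wt AL. Eif4e3 was at 1.01 FPKM in Ercc1 DR, 1.097 FPKM in Ercc1 AL and 0.599 FPKM in wt AL, and Eif4e1b at 0.291 FPKM in Ercc1 DR, 0.411 FPKM in Ercc1 AL and 0.346 FPKM in wt AL. The order Ercc1 DR above Ercc1 AL above wt AL held for Eif4e and Eif4e2 and not for Eif4e3 and Eif4e1b. Of the scaffolds, Eif4g1 was at 36.4 FPKM in Ercc1 DR, 20.8 FPKM in Ercc1 AL and 14.9 FPKM in wt AL. Eif4g2, which lacks the eIF4E site, was at 37.5 FPKM in Ercc1 DR, 17.7 FPKM in Ercc1 AL and 10.9 FPKM in wt AL. Eif4g3 was at 3.85 FPKM in Ercc1 DR, 3.26 FPKM in Ercc1 AL and 2.597 FPKM in wt AL, the lowest of the 3 in each library. Eif4g2 had the largest scaffold ratio in Ercc1 DR against Ercc1 AL at 0.73, beside 0.45 for Eif4g1 and -0.07 for Eif4g3, whose sign depends on the scaling. Eif4a3, a helicase of the exon junction complex, was at 10.2 FPKM in Ercc1 DR, 5.04 FPKM in Ercc1 AL and 3.03 FPKM in wt AL. The 250 bases before the start of Eif4a1, the highest member in Ercc1 DR and Ercc1 AL, are shown 5′ to 3′ with a match to CACGTG in capitals.
Eif4a1 (GRCm38.p6, chr11:69672424-69672673, minus): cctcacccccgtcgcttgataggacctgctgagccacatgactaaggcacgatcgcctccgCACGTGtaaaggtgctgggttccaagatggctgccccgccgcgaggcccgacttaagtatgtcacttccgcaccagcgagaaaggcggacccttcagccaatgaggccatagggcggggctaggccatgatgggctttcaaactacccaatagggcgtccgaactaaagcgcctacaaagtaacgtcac

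Among the 4E-binding protein genes, Eif4ebp3 had the largest ratio of all members tested in each comparison. Eif4ebp3, one of these repressors of eIF4E (chromosome 18, 36664060 to 36666324), measured 62.6 FPKM in Ercc1 DR, 11.97 FPKM in Ercc1 AL and 3.72 FPKM in wt AL. The libraries were far apart, with deposited intervals of 50.6 to 54.5 FPKM in Ercc1 DR, 9.44 to 10.97 FPKM in Ercc1 AL and 2.79 to 3.62 FPKM in wt AL, and the FPKM lay above its own interval in each library. The ratio was 1.04 in Ercc1 AL against wt AL, 1.98 in Ercc1 DR against Ercc1 AL and 3.05 in Ercc1 DR against wt AL. Over the scalings the first ran between 0.81 and 1.46, so its 2-fold call depends on the scaling. Eif4ebp1, the best known of these proteins, was at 8.096 FPKM in Ercc1 DR, 5.17 FPKM in Ercc1 AL and 3.29 FPKM in wt AL. Eif4ebp2 was at 16.5 FPKM in Ercc1 DR, 10.7 FPKM in Ercc1 AL and 10.04 FPKM in wt AL. Both were highest in Ercc1 DR, by less than 2-fold over Ercc1 AL as deposited. Eif4ebp3 made up 71.8% of the summed FPKM of the 3 genes in Ercc1 DR, 43.1% in Ercc1 AL and 21.8% in wt AL. The sum of the 3 was 6.87 times the level of Eif4e in Ercc1 DR, 4.003 times in Ercc1 AL and 4.18 times in wt AL. An annotated readthrough gene shares 501 exonic bases with Eif4ebp3 on the same strand, and the upstream gene Ankhd1 was at 3.77 FPKM in Ercc1 DR, 2.45 FPKM in Ercc1 AL and 1.88 FPKM in wt AL. Eif4enif1, a shuttling partner of eIF4E, was at 3.38 FPKM in Ercc1 DR, 2.69 FPKM in Ercc1 AL and 1.89 FPKM in wt AL.

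**Figure D4:**
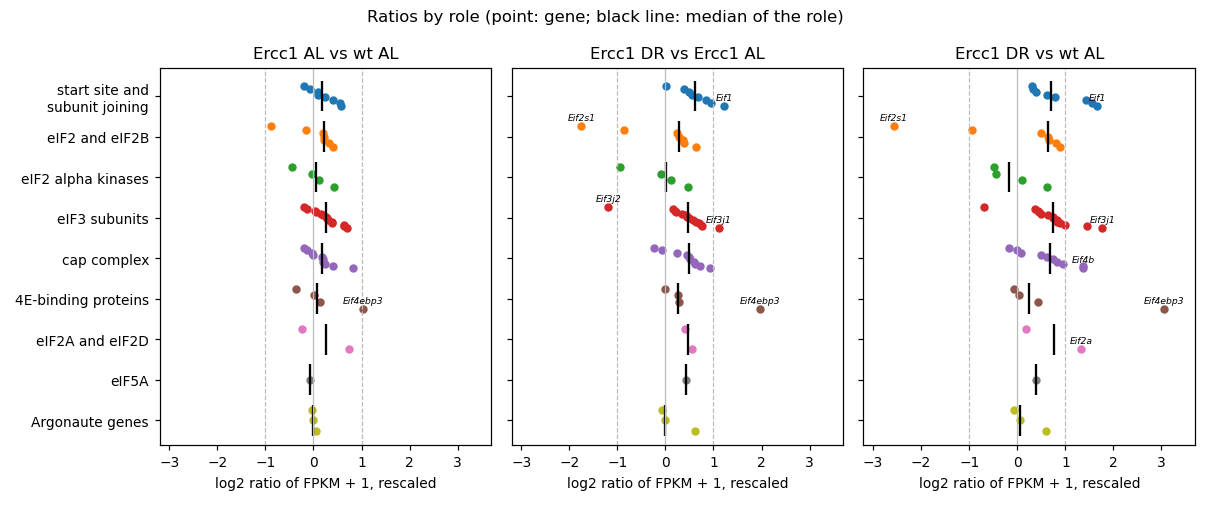
Rescaled log2 ratios of the 53 members by role in the 3 comparisons; each point is a gene, each black line the median of a role, dashed lines mark 2-fold, and names are given for the outermost genes of a role past 2-fold. Eif2s1 at -1.75 and Eif4ebp3 at 1.98 bound the range in Ercc1 DR against Ercc1 AL, and the sign of points near 0 depends on the scaling.

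The other members were eIF2A, eIF2D, eIF5A and Argonaute genes, of which Eif2a alone passed 2-fold after rescaling, in Ercc1 DR against wt AL. Eif2a, which can deliver the initiator tRNA without eIF2 (chromosome 3, 58525821 to 58557501), measured 8.36 FPKM in Ercc1 DR, 4.25 FPKM in Ercc1 AL and 1.48 FPKM in wt AL, a ratio of 0.73 in Ercc1 AL against wt AL and 1.33 in Ercc1 DR against wt AL. It shares 72 exonic bases with the opposite-strand gene Serp1, which was at 68.3 FPKM in Ercc1 DR, 56.2 FPKM in Ercc1 AL and 27.5 FPKM in wt AL. Eif2d, another tRNA-delivering factor, was at 5.58 FPKM in Ercc1 DR, 3.14 FPKM in Ercc1 AL and 2.76 FPKM in wt AL. Eif5a, which carries the modified residue hypusine and helps elongation as well, was at 73.5 FPKM in Ercc1 DR, 42.99 FPKM in Ercc1 AL and 32.2 FPKM in wt AL, a ratio of 0.43 in Ercc1 DR against Ercc1 AL. Its paralog Eif5a2 was at 0.167 FPKM in Ercc1 DR, 0.245 FPKM in Ercc1 AL and 0.168 FPKM in wt AL. The 4 rows with Eif2c symbols are Argonaute genes under older names and act in microRNA silencing. Eif2c2, which encodes the slicing Argonaute AGO2, was at 4.19 FPKM in Ercc1 DR, 1.87 FPKM in Ercc1 AL and 1.35 FPKM in wt AL and had a ratio of 0.61 in Ercc1 DR against Ercc1 AL. Eif2c1 was at 1.25 FPKM in Ercc1 DR, 1.09 FPKM in Ercc1 AL and 0.801 FPKM in wt AL. Eif2c3 was at 1.33 FPKM in Ercc1 DR, 1.06 FPKM in Ercc1 AL and 0.702 FPKM in wt AL, and Eif2c4 at 0.366 FPKM in Ercc1 DR, 0.334 FPKM in Ercc1 AL and 0.298 FPKM in wt AL. Eif2c2 was the highest of the 4 in each library. Without the 13 members that are kinases, binding proteins, Argonautes or named by a domain, 41 tested factors had medians of 0.21, 0.49 and 0.65 in Ercc1 AL against wt AL, Ercc1 DR against Ercc1 AL and Ercc1 DR against wt AL. The 12 tested members set aside had 0.00021, 0.19 and 0.08.

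In Ercc1 AL against wt AL the highest ratios were those of Eif4ebp3 (1.04), Eif4b (0.83), Eif2a (0.73), Eif3e (0.70) and Eif3f (0.64), and the lowest those of Eif2s1 (-0.88), Eif2ak2 (-0.44), Eif4ebp2 (-0.37), Eif2d (-0.23) and Eif1ax (-0.20). Under 6 scalings of the libraries, 23 members stayed above 0, Eif2s1 and Eif2ak2 stayed below 0, and 28 changed sign. How many of all features kept their sign was not counted, so these counts have no background.

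In Ercc1 DR against Ercc1 AL the highest ratios were those of Eif4ebp3 (1.98), Eif1 (1.22), Eif3j1 (1.12), Eif1a (0.95) and Eif4a1 (0.92). The lowest were Eif2s1 (-1.75), Eif3j2 (-1.19), Eif2ak3 (-0.94), Eif2b2 (-0.85) and Eif4e3 (-0.23). Under the 6 scalings, 42 members stayed above 0, Eif2s1 and Eif3j2 stayed below, and 9 changed sign, Eif2ak3, Eif2b2 and Eif4e3 among them. Eif1, Eif3j1 and Eif4ebp3 were at least 2-fold higher in all 6. The same counts were not made for all features, so they have no background.

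In Ercc1 DR against wt AL the highest ratios were those of Eif4ebp3 (3.05), Eif3j1 (1.77), Eif1 (1.66), Eif1a (1.56) and Eif3e (1.45), and Eif5, Eif4b, Eif4a1, Eif2a and Eif3m were also past 2-fold. The lowest were Eif2s1 (-2.57), Eif2b2 (-0.95), Eif3j2 (-0.69), Eif2ak2 (-0.49) and Eif2ak3 (-0.44). Of the 10 genes past 2-fold, 9 were so under all 6 scalings, Eif3m being the exception, and 43 members stayed above 0, while Eif2s1 alone stayed below. The 9 include Eif3j1, whose row can share fragments with that of Eif3j2. No count over the 6 scalings was made for all features, so these counts have no background. This comparison shares Ercc1 DR and wt AL with the other comparisons, so its values are not separate evidence.

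Genes that work beside the initiation factors were read from fixed lists on the same scale. Of 19 initiation partners with other symbols, the medians were 0.16 in Ercc1 AL against wt AL, 0.34 in Ercc1 DR against Ercc1 AL and 0.59 in Ercc1 DR against wt AL, with 0, 1 and 5 members higher and 0, 0 and 0 lower by at least 2-fold in that order. Of all features, 2.35%, 3.12% and 6.02% were higher after rescaling, and 5.80%, 6.50% and 24.0% as deposited. Those lower were 4.90%, 12.0% and 16.4% after rescaling, and 2.20%, 8.71% and 8.63% as deposited. These shares also hold for the lists that follow. As deposited, 4 partner genes were higher in Ercc1 AL against wt AL, 3 in Ercc1 DR against Ercc1 AL and 14 in Ercc1 DR against wt AL, and 0, 0 and 0 were lower. Pabpc1, the poly(A)-binding protein that contacts eIF4G, was at 56.1 FPKM in Ercc1 DR, 21.2 FPKM in Ercc1 AL and 13.4 FPKM in wt AL, a ratio of 1.04 in Ercc1 DR against Ercc1 AL. Ddx3x, a helicase that aids scanning, was at 51.9 FPKM in Ercc1 DR, 22.1 FPKM in Ercc1 AL and 9.32 FPKM in wt AL. Larp4, an RNA-binding protein gene, was at 17.96 FPKM in Ercc1 DR, 7.89 FPKM in Ercc1 AL and 2.66 FPKM in wt AL. All 3 genes were highest in Ercc1 DR and lowest in wt AL. Pdcd4, an inhibitor of eIF4A, was at 10.7 FPKM in Ercc1 DR, 7.51 FPKM in Ercc1 AL and 2.56 FPKM in wt AL. Mknk2, a kinase of eIF4E, was at 12.5 FPKM in Ercc1 DR, 7.29 FPKM in Ercc1 AL and 2.72 FPKM in wt AL. Its paralog Mknk1 was at 1.62 FPKM in Ercc1 DR, 1.41 FPKM in Ercc1 AL and 1.93 FPKM in wt AL, highest in wt AL. The partner genes past 2-fold after rescaling in Ercc1 DR against wt AL were Pabpc1, Ddx3x, Larp4, Pdcd4 and Mknk2. Elongation and termination factors (12 of 14 tested) had medians of 0.07 in Ercc1 AL against wt AL, 0.34 in Ercc1 DR against Ercc1 AL and 0.50 in Ercc1 DR against wt AL, with 0, 0 and 2 members higher and 0, 0 and 0 lower by at least 2-fold in that order. As deposited, 0 of these factors were higher in Ercc1 AL against wt AL, 2 in Ercc1 DR against Ercc1 AL and 8 in Ercc1 DR against wt AL, and 0, 0 and 0 were lower. The 2 past 2-fold after rescaling were the release factor gene Etf1 and that of its partner, Gspt1. Etf1 was at 23.2 FPKM in Ercc1 DR, 9.43 FPKM in Ercc1 AL and 5.39 FPKM in wt AL. Gspt1 was at 14.2 FPKM in Ercc1 DR, 6.97 FPKM in Ercc1 AL and 3.23 FPKM in wt AL.

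Cytosolic ribosomal protein genes (73 of 80 tested in Ercc1 DR against Ercc1 AL) had medians of 0.33 in Ercc1 AL against wt AL, 0.30 in Ercc1 DR against Ercc1 AL and 0.78 in Ercc1 DR against wt AL. Their median was thus above that of the initiation factors in the comparisons with wt AL and below it in Ercc1 DR against Ercc1 AL, without a test of these differences. The mTORC1 and S6 kinase list (23 of 28 tested in Ercc1 DR against Ercc1 AL) had medians of -0.01 in Ercc1 AL against wt AL, 0.22 in Ercc1 DR against Ercc1 AL and 0.20 in Ercc1 DR against wt AL, with 0, 1 and 2 members higher and 0, 1 and 0 lower by at least 2-fold, in that order. As deposited, 1 of its genes were higher in Ercc1 AL against wt AL, 2 in Ercc1 DR against Ercc1 AL and 7 in Ercc1 DR against wt AL, and 0, 1 and 0 were lower. Within it Sesn1, a sestrin that restrains mTORC1, was at 7.32 FPKM in Ercc1 DR, 1.65 FPKM in Ercc1 AL and 0.803 FPKM in wt AL. Sesn3, another sestrin, was at 5.46 FPKM in Ercc1 DR, 12.4 FPKM in Ercc1 AL and 6.59 FPKM in wt AL, and Ddit4, a further inhibitor, at 3.84 FPKM in Ercc1 DR, 2.17 FPKM in Ercc1 AL and 0.581 FPKM in wt AL. The sestrin genes Sesn1 and Sesn3 thus differed in opposite directions in Ercc1 DR against Ercc1 AL. Mtor itself was at 2.80 FPKM in Ercc1 DR, 1.84 FPKM in Ercc1 AL and 1.32 FPKM in wt AL. Mitochondrial initiation and elongation factors (9 genes) had medians of -0.12 in Ercc1 AL against wt AL, 0.13 in Ercc1 DR against Ercc1 AL and 0.37 in Ercc1 DR against wt AL, and none passed 2-fold after rescaling. As deposited, 0 of the 9 were higher in Ercc1 AL against wt AL, 1 in Ercc1 DR against Ercc1 AL and 5 in Ercc1 DR against wt AL, and 0, 0 and 0 were lower.

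Start regions of the members were compared by the letters they hold. RefSeq start windows on GRCm38.p6 were matched by symbol for 43 members whose annotated start lay within 200 bases of the deposited row, and the 250 bases before the start were searched on both strands for CACGTG, the E-box bound by MYC-type factors, and for CCGGAAG, a site of ETS factors. CCGGAAG was found in 11 of 43 members (25.6%), against 6.91% of all 32851 windows and 8.98% of those of protein-coding genes. Ribosomal protein genes held it in 18 of 60 windows. CACGTG was found in 7 members (16.3%), against 6.02% and 6.63%. For ribosomal protein genes the count was 4 of 60 windows (6.67%). CACGTG and CCGGAAG share no stretch that would count a site for both, and Eif1b and Eif5a2 hold both. The 10 tested members with CCGGAAG had median ratios of 0.12 in Ercc1 AL against wt AL, 0.41 in Ercc1 DR against Ercc1 AL and 0.41 in Ercc1 DR against wt AL, and the 30 without it 0.18 in Ercc1 AL against wt AL, 0.40 in Ercc1 DR against Ercc1 AL and 0.55 in Ercc1 DR against wt AL. The 6 tested members with CACGTG had 0.20 in Ercc1 AL against wt AL, 0.33 in Ercc1 DR against Ercc1 AL and 0.55 in Ercc1 DR against wt AL, and the 34 without it 0.15 in Ercc1 AL against wt AL, 0.40 in Ercc1 DR against Ercc1 AL and 0.46 in Ercc1 DR against wt AL. For neither motif did the order of the medians hold in all 3 comparisons. The shares describe these windows only. Of the windows printed above, that of Eif4a1 holds CACGTG, that of Eif3m holds CCGGAAG, and those of Eif1, Eif2s1 and Eif2s2 hold neither.

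The precision of single values differs between members. Each deposited interval belongs to 1 library and holds no spread between animals, and what else it covers is not stated. For members with at least 1 FPKM the interval reached a median of 6.04% of its midpoint to either side in Ercc1 DR, 7.51% in Ercc1 AL and 10.1% in wt AL. Intervals lay apart with Ercc1 DR above Ercc1 AL in 46 of 53 members (all features 47.4%) and below it in 4 (26.9%). Ercc1 DR lay above wt AL in 48 (62.6%) and below it in 2 (20.5%). Ercc1 AL lay above wt AL in 47 (61.6%) and below it in 1 (10.9%). The FPKM fell outside its own interval for 25 of 56 members in Ercc1 DR, 21 in Ercc1 AL and 11 in wt AL, Eif1, Eif2s1 and Eif4ebp3 in all of them. Over all rows the share was 12.96% in Ercc1 DR, 12.9% in Ercc1 AL and 9.702% in wt AL. Whether strand was used in counting is not given, so it is not known whether reads of a member and an opposite-strand gene were kept apart. In GENCODE M21, 15 members share exonic bases with an opposite-strand gene other than a small RNA, most of all Eif3d with 2151 bases of Gm17638, Eif5b with 1643 bases of Rev1 and Eif3j1 with 1107 bases of Spg11. Eif3j2 was taken at its GENCODE position for this count, not at that of its row. A snoRNA gene lies within 7 members on the same strand, among them Eif4a1, Eif4a2, Eif5 and Eif4g2. GENCODE also lists 10 processed pseudogenes with Eif names, whose share of fragments was not measured.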

How the data were processed

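Liver RNA depleted of ribosomal RNA was sequenced by a TruSeq protocol, per the labels' protocols, in 3 libraries of 1 group each, assigned by title. The authors deposited FPKM with lower and upper bounds and a status code, per the file headers. Reads were placed on mm10, per the submitters' processing notes, and the quantifying tool, annotation and strand use are each not given in the sources used here. Rows marked HIDATA or FAIL (56, 96 and 62 in Ercc1 DR, Ercc1 AL and wt AL) were treated as missing. The tables hold no counts. With each bound taken as 2 SD from the midpoint, the intervals imply 25.03, 25.1 and 19.0 fragments, in units of 1000000, in that order, a rough estimate of depth.

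Ratios are log2 of FPKM + 1 over features with at least 1 FPKM in either library, each pair first divided by its median FPKM ratio over 9109 features. With 1 library per group no test was made. Deposited starts count from 0 and were raised by 1. Where a symbol had several rows, the most abundant on average was taken, and no member repeats. Named genes are the 5 highest and 5 lowest ratios per comparison, every member past 2-fold, and the leading member and paralogs of each role. Neighbouring genes, Hspa5 and the remaining subunit genes named were chosen after their values were seen. Members, lists and this rule were chosen with earlier results of these data known. Scripts used Python 3.11.15 with pandas 2.3.3 and were tested on simulated data. Overlaps used GENCODE M21 and start windows RefSeq GRCm38.p6, the same build as mm10.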

Additional observations from a re-analysis of the deposited data

How the results depend on the processing

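Values are given in the order Ercc1 AL against wt AL, Ercc1 DR against Ercc1 AL, Ercc1 DR against wt AL. As rescaled, the members' median log2 ratio was 0.17, 0.44 and 0.62, with 1, 3 and 10 members at least 2-fold higher and 0, 2 and 1 lower. The scaling moved these most. As deposited, the medians were 0.57, 0.75 and 1.23, with 6, 10 and 37 members higher and 0, 1 and 1 lower. Scaled to the summed FPKM without the 100 most abundant genes, the medians were -0.0482, 1.79 and 1.63, the first reversed in sign, with 0, 45 and 42 higher and 1, 0 and 1 lower. Scalings chosen after seeing the data were medians over features with at least 5 or 20 FPKM in all libraries or over protein-coding symbols. With at least 20 FPKM the medians were 0.17, 0.96 and 0.98, with 1, 20 and 26 higher and 0, 1 and 1 lower. The protein-coding median gave 2 lower in Ercc1 DR against wt AL. Each scaling moves all features together, and their shares under these scalings and the summed FPKM were not counted. A pseudocount of 5 gave medians of 0.10, 0.30 and 0.35, 0 higher in the first comparison and 1 lower in the second. A pseudocount of 0.1 gave 4 lower in the second and 3 in the third. With at least 5 FPKM in either library, 1 was lower in the second and the median of the third was 0.74. Without the kinases, the 4E-binding proteins with Eif4enif1, the Argonautes and Eif1ad, 0 were higher in the first. The 31 members sharing no exonic bases with another gene, a set also chosen after seeing the data, had medians of 0.0607, 0.37 and 0.49, 0, 1 and 4 higher and 1 lower in the second. Fewer members were counted in the last 3 settings; the cause of the other shifts was not tested. Interval midpoints, summed symbols and no filter left each median within 0.1 and each count within 1.5 times. No paired analysis was possible because each group has 1 library, and no library could be left out.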
